A study of Mus musculus with 12 samples.

Results

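The genes described here encode ligands, receptors and antagonists of bone morphogenetic protein (BMP) signalling, together with a target gene. They are Bmp2, Bmp4, Bmp5, Bmp6, Bmp7, Bmpr1a, Bmpr1b, Nog, Grem1 and Id1, found by symbol among the deposited values, and they make up 10 of 17536 genes. RNA was measured by sequencing in cells of the superficial zone (SFZ) and the deep zone (DZ) of articular cartilage from 5-day-old mice, with 3 R3-Cntl and 3 R3-cKO libraries for each zone and 12 libraries in all. Both genotypes carried Runx3 fl/fl on the C57BL/6 strain, and R3-cKO mice also carried Col2a1-Cre, a Cre recombinase driven by the type II collagen gene of chondrocytes. The study asked what the loss of Runx3 does to chondrocytes of either zone. Its methods describe SFZ cells as released by trypsin and collagenase from the ends of femur and tibia, DZ cells as released by longer digestion of the cartilage that was left, and all such cells as grown in monolayer on fibronectin. The libraries are described as coming from individual littermates.

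Values are FPKM, fragment counts corrected for transcript length and library depth, a unit inferred from the values themselves. They summed to between 392241 and 429213 FPKM per library, and the number of reads behind a value is unknown. Changes between groups are log2 fold changes of FPKM + 1, which understate the change of genes with low values, and adjusted p-values are those of limma over all genes tested. All 10 genes passed the filter, a value of 1 FPKM or more in 3 or more of the libraries compared, in every comparison.

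BMPs are secreted proteins of the TGF-beta superfamily that bind pairs of type I and type II receptors at the cell surface. The activated type I receptor phosphorylates Smad1, Smad5 and Smad9, which enter the nucleus with Smad4 and switch on genes such as those of the Id family, while Noggin and Gremlin 1 bind the ligands outside the cell and keep them from their receptors. In the growing skeleton the pathway drives the formation and maturation of cartilage, and Noggin is needed for joints to form.

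Runx3, the targeted gene, was not lower in libraries with the R3-cKO label. R3-Cntl SFZ libraries 1, 2 and 3 held 10.73, 5.98 and 6.65 FPKM of it, those labelled R3-cKO 11.83, 9.07 and 3.42. The DZ libraries held 12.67, 12.65 and 7.66 FPKM under the R3-Cntl label and 15.95, 12.66 and 8.14 under the R3-cKO label. The genotypes overlapped in both zones (exact two-sided permutation p = 1 in the SFZ and 0.6 in the DZ, where the smallest possible p is 0.1). A value for the whole gene does not show whether the floxed part was present, and the genotypes below are those of the labels. Of the marker genes, Prg4 was at 22.24, 8.38 and 7.13 FPKM with R3-Cntl and 6.95, 2.47 and 2.13 with R3-cKO in the SFZ, and Alpl did not overlap in the DZ either (22.93 to 51.4 and 8.43 to 11.9 FPKM). Both were picked out after their values were seen. Other markers did not overlap either, such as Mmp13, Sp7 and Alpl in the SFZ and Sp7, Bglap and Hapln1 in the DZ. These were lower with R3-cKO, while Cd34 was higher with R3-cKO in the DZ. Thbs4, Erg and Cd34 overlapped in the SFZ and Acan in the DZ. The shares of all genes without overlap were 2.4% in the SFZ and 8.03% in the DZ. The chondrocyte markers Col2a1, Acan, Sox9, Col9a1, Matn1 and Hapln1 were all detected, and the 6 genes together summed to 3816 to 11843 FPKM in the SFZ and to 13305 to 29788 FPKM in the DZ. The superficial markers Prg4, Thbs4, Erg and Cd34 together summed to 65.5 to 142 FPKM in the SFZ, where Thbs4 was the most abundant (mean 67.2 FPKM), and to 4.95 to 9.7 FPKM in the DZ, where Erg was (mean 3.31 FPKM, against 0.707 for Thbs4). Neither sum overlapped between zones. Of the superficial markers taken singly, Thbs4 and Cd34 did not overlap either. Prg4 did, at 2.13 to 22.24 FPKM in the SFZ and 1.22 to 5.72 FPKM in the DZ. So did Erg, at 3.03 to 6.05 FPKM in the SFZ and 2.27 to 5.96 FPKM in the DZ.

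By level, FPKM being per length and so comparable between genes, Id1 was the highest of the 10 in both zones, with a mean of 74.5 FPKM in the SFZ and 62.7 FPKM in the DZ (n = 6 each). In the SFZ it was followed by Bmp4 (mean 44.8 FPKM) and Bmpr1a (41.9 FPKM), which each led the other in 3 of 6 libraries, then by Nog (15.5 FPKM), Bmp5 (12.3 FPKM) and Grem1 (10.1 FPKM). Bmpr1b, Bmp6, Bmp7 and Bmp2 had means of 2.46 to 2.71 FPKM there, and the ranges overlapped at each step among them. In the order of SFZ levels the ranges of neighbours were separate between Bmpr1a and Nog and between Grem1 and Bmpr1b, and overlapped at every other step. In the DZ the order was Id1, Bmpr1a (34.8 FPKM), Nog (20.4 FPKM), Bmp5 (16.4 FPKM), Grem1 (12.8 FPKM), Bmp4 (10.2 FPKM), Bmp6 (3.8 FPKM), Bmp7 (2.71 FPKM), Bmp2 (2.33 FPKM) and Bmpr1b (1.24 FPKM). Only the step from Id1 to Bmpr1a separated the ranges of neighbours there. Bmp4 fell from the second place to the sixth between the zones, and Bmpr1b from the seventh to the last.

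**Figure D1:**
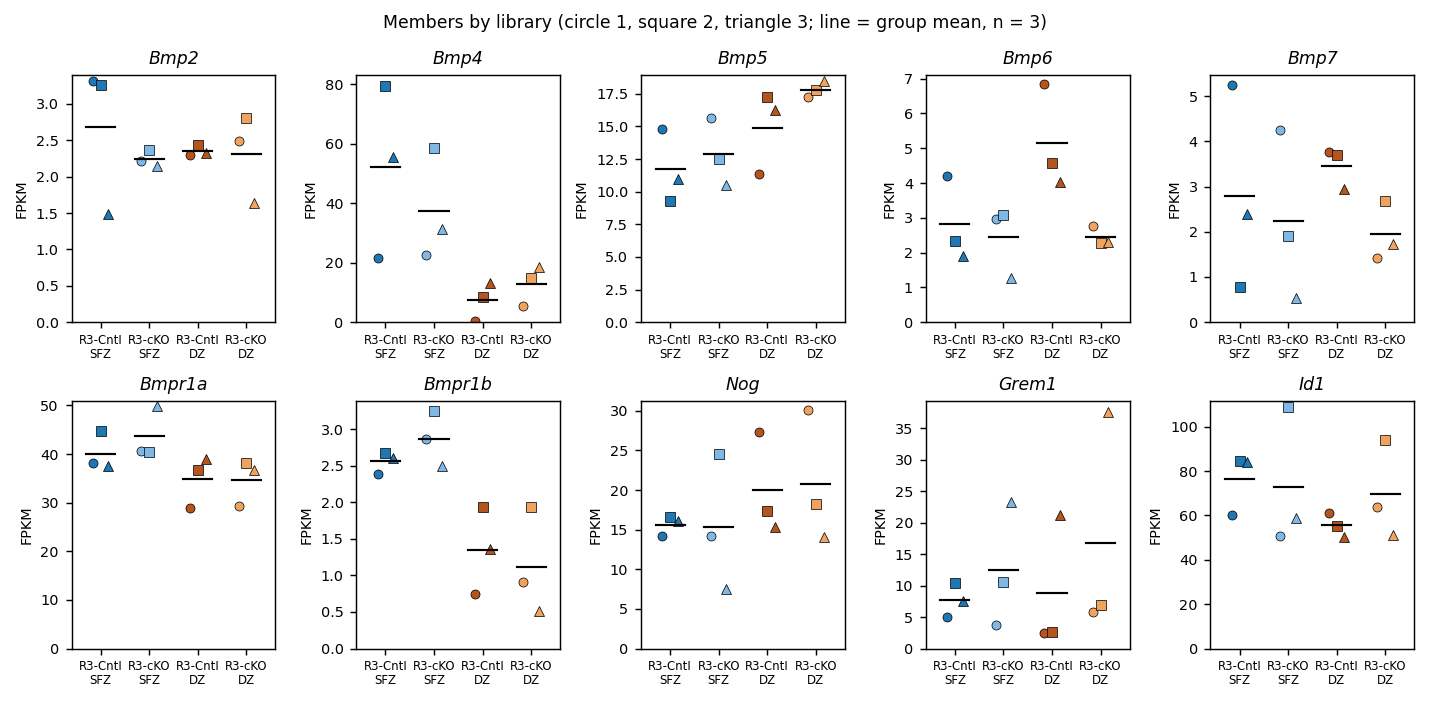
FPKM of each of the 10 genes in every library, by group (x axis), on linear axes from 0; circles, squares and triangles are libraries 1, 2 and 3 and the line is the group mean (n = 3). Bmp4 lies at 21.72 to 79.4 FPKM in the 6 SFZ libraries and at 0.42 to 18.63 FPKM in the 6 DZ libraries, and Bmpr1b at 2.39 to 3.25 and 0.52 to 1.94 FPKM.

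Zones were compared over both genotypes to see how each gene differs between the cells released as SFZ and as DZ. Zone and digestion changed together, so their effects cannot be told apart, and the cells are described as grown in monolayer. Among the ligands, Bmp4 (Entrez gene 12159, chr14:47003195-47010344, reverse strand of mm9), a BMP that promotes cartilage and bone formation, stood out. In the SFZ, R3-Cntl libraries 1, 2 and 3 had values of 21.72, 79.4 and 55.45 FPKM, and those labelled R3-cKO had values of 22.49, 58.59 and 31.31. In the DZ the values were 0.42, 8.5 and 13.25 FPKM for R3-Cntl and 5.37, 14.9 and 18.63 for R3-cKO. All 6 SFZ values lay above all 6 DZ values, the widest gaps being those to R3-Cntl DZ library 1. The mean was 44.8 ± 23.3 FPKM in the SFZ and 10.2 ± 6.7 FPKM in the DZ (SD, n = 6), a ratio of means of 4.4. Its log2 fold change of -2.26 had a standard error of 0.60 and an adjusted p of 0.021 in limma, and the exact two-sided permutation test with zone labels permuted within genotype gave its smallest possible p, 0.005. Without R3-Cntl SFZ library 2 the adjusted p was 0.0546, and over the other alternatives it ranged from 0.00613 to 0.0481.

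In bulk RNA, fewer cells of a type and less RNA per cell cannot be told apart. Within genotypes the zone effect on Bmp4 was -3.02 in R3-Cntl (standard error 0.90, adjusted p = 0.106) and -1.50 in R3-cKO (standard error 0.52, adjusted p = 0.282), with groups that did not overlap in either. In these comparisons limma called 140 of 11336 genes (1.24%) in R3-Cntl and 2 of 11336 genes (0.0176%) in R3-cKO, and 0 of the 10 genes in each. In R3-cKO, where libraries paired by number, the replicate block raised the count to 352 genes, and again 0 of the 10 genes were called (adjusted p = 0.0588 for Bmp4). The difference between the genotypes in the zone effect on Bmp4, 1.52 on the log2 scale (standard error 1.17, adjusted p = 0.999), did not pass the test. It and the R3-Cntl zone effect include R3-Cntl DZ library 1, which had the lowest Bmp4, 0.42 FPKM. The DZ contrast of genotypes without that library, given below, was much smaller.

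The promoters of Bmp4 and Bmpr1b are shown because these were the genes of the 10 that differed between zones, with Bmpr1a as the other type I receptor and Bmp6 as the ligand with the largest genotype contrast relative to its error. RefSeq promoter sequences of the GRCm38.p6 build, 250 bases before to 50 bases after an annotated start, were found for 6 of the 10 genes. Each sequence matched mm9 exactly and once. Bmp4 lies at chr14:47010295-47010594 (reverse strand), and 50 of its bases are in an annotated exon. The first of the 3 listed starts of Bmpr1b lies at chr3:141645179-141645478 (reverse strand, 50 bases in an exon), Bmpr1a at chr14:35315683-35315982 (reverse strand, 191 bases in exons) and Bmp6 at chr13:38437335-38437634 (forward strand, all 300 bases in an annotated exon). Capitals mark GGCGCC, the letters bound by Smad1 and Smad5. Sequences run 5′ to 3′.
Bmp4: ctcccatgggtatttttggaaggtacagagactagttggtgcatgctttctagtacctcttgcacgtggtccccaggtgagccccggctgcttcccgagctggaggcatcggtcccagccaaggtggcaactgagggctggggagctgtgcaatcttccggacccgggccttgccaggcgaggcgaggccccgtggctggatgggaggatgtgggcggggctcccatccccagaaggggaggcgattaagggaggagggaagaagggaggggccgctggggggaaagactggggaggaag
Bmpr1b: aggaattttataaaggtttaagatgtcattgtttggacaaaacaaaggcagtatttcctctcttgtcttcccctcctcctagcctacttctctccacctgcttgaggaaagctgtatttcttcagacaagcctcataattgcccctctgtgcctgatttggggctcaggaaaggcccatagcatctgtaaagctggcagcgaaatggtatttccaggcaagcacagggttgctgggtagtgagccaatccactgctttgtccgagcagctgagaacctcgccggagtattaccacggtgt
Bmpr1a: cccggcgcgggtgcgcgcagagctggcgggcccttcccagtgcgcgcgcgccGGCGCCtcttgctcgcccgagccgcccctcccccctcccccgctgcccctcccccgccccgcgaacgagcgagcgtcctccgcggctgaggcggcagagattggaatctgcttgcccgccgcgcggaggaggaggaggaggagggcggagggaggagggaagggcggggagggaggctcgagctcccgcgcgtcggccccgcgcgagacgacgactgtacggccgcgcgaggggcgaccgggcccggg
Bmp6: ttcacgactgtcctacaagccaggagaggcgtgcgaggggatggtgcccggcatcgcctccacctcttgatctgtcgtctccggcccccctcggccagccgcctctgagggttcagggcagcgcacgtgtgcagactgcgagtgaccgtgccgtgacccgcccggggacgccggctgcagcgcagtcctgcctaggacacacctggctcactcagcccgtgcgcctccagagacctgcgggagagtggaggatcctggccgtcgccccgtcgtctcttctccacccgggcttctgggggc
The Runx letters TGTGGT or TGCGGT, searched on both strands, were absent from all 8 promoters of the 6 genes, and 22.4% of 32851 promoters of the same length hold them. The motif that the paper recovered for Runx3 also allows a final C. The promoter at the third listed start of Bmpr1b holds TGTGGC, and this wider form was not searched. GGCGCC, which reads the same on both strands, was found in those of Bmpr1a and Grem1 and is held by 11.9% of all promoters. A match or its absence describes these letters in this window and nothing about the factor.

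The other ligands did not pass the test between zones. Bmp5, a ligand of cartilage condensations, measured 9.28 to 15.65 FPKM in the SFZ (median 11.7) and 11.32 to 18.51 FPKM in the DZ (median 17.2). In R3-cKO, where libraries paired by number, it was higher in the DZ in 3 of 3 pairs. The zones overlapped through R3-Cntl DZ library 1, at 11.32 FPKM. The log2 fold change of Bmp5 was 0.39 (standard error 0.13, adjusted p = 0.0554). The adjusted p was 0.0157 with quantile normalization, 0.0132 with median-of-ratios size factors, and 0.0259, 0.046 and 0.0263 without R3-Cntl SFZ library 1, R3-cKO SFZ library 1 or R3-Cntl DZ library 1, so that its call turned on these settings. Bmp6, which in growth cartilage accompanies hypertrophy, differed by 0.38 on the log2 scale (standard error 0.21, adjusted p = 0.216), and Bmp7 by 0.21 (standard error 0.33, adjusted p = 0.666). Bmp2 was at 1.48 to 3.31 FPKM over all 12 libraries, with a log2 fold change of -0.04 that turned to 0.21 and 0.08 under the 2 scalings. Summed over the 5 ligands, the level was 45.8 to 95.1 FPKM in the SFZ and 24.6 to 42.8 FPKM in the DZ. Bmp4 was the most abundant of the 5 in every SFZ library, at 44.1 to 83.5% of their sum, whereas Bmp5 was in 5 of 6 DZ libraries, where Bmp4 made up 1.71 to 43.5%.

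Of the type I receptors, Bmpr1b (Entrez gene 12167, chr3:141500100-141832389, reverse strand of mm9), which transmits signals in early cartilage, was lower in the DZ. R3-Cntl SFZ libraries 1, 2 and 3 held 2.39, 2.67 and 2.61 FPKM, those labelled R3-cKO 2.86, 3.25 and 2.49. For the DZ the values were 0.75, 1.94 and 1.36 FPKM with R3-Cntl and 0.91, 1.93 and 0.52 with R3-cKO. The SFZ libraries were tightly grouped, the DZ libraries varied more, and the zones did not overlap. The log2 fold change was -0.77 (standard error 0.17, adjusted p = 0.00945, exact two-sided permutation p = 0.005, the smallest possible), and the adjusted p stayed between 0.00533 and 0.0493 over all 18 alternatives. Within genotypes it was -0.63 in R3-Cntl (standard error 0.21, adjusted p = 0.122) and -0.92 in R3-cKO (standard error 0.26, adjusted p = 0.218).

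Bmpr1a, the type I receptor found in most tissues, was at 37.57 to 49.89 FPKM in the SFZ (median 40.5) and 28.94 to 38.94 FPKM in the DZ (median 36.7). Its log2 fold change was -0.26 (standard error 0.10, adjusted p = 0.0819). With the replicate block the adjusted p in limma was 0.0432, though R3-Cntl libraries were not taken to pair by number between zones. The Bmpr1a level was 12.4 to 20 times that of Bmpr1b in the SFZ libraries and 19 to 70.5 times in the DZ libraries. The antagonists overlapped widely between zones. Nog, or Noggin, was at 7.55 to 24.52 FPKM in the SFZ and 14.04 to 30.14 FPKM in the DZ (log2 fold change 0.39, standard error 0.26, adjusted p = 0.301). Grem1, or Gremlin 1, was at 3.77 to 23.23 FPKM in the SFZ and 2.45 to 37.58 FPKM in the DZ, with a log2 fold change of -0.06 that turned to 0.16 and 0.08 under the 2 scalings (standard error 0.59, adjusted p = 0.948). Its 3 highest values, 37.58, 23.23 and 21.25 FPKM, were those of R3-cKO DZ library 3, R3-cKO SFZ library 3 and R3-Cntl DZ library 3, while the other 9 libraries were at 2.45 to 10.56 FPKM. Id1, a transcriptional target that blocks the DNA binding of helix-loop-helix factors, did not pass the test, at -0.23 on the log2 scale (standard error 0.21, adjusted p = 0.447).

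In all, 2 of the 10 genes were called between zones, both lower in the DZ, against 23.2% of the 11765 genes tested. By direction, 18.9% of all genes were called lower and 4.3% higher in the DZ. The share of the 10 called is thus near that of all genes. The groups of 6 did not overlap for 2 of the 10, Bmp4 and Bmpr1b, the genes called, against 11.3% of all genes. The median log2 fold change of all genes was -0.14 as deposited, 0.03 after quantile normalization and 0 with median-of-ratios size factors, and the genes called higher and lower numbered 506 and 2219 as deposited, 1237 and 915 after quantile normalization, and 1053 and 1088 with the size factors. Relative to the deposited median the changes were -2.12 for Bmp4, -0.63 for Bmpr1b, -0.12 for Bmpr1a and -0.09 for Id1, and 0.08 for Grem1, 0.1 for Bmp2, 0.35 for Bmp7, 0.52 for Bmp6 and 0.53 for both Bmp5 and Nog.

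A wider list of 63 BMP pathway genes, the 10 included, had 62 in the table and 50 tested between zones. Of these, 2 were called higher and 13 lower in the DZ, against 4.3% and 18.9% of all genes, with a median log2 fold change of -0.23 against -0.14 for all genes. The split was 4 higher and 8 lower after quantile normalization and 4 and 7 with median-of-ratios size factors, with Bmp5 and Gdf5 added as higher, against 1237 and 915 and 1053 and 1088 of 11765 genes under the same scalings. Receptors and co-receptors had 5 of 9 tested called lower, against the same 18.9%, and under both scalings only Bmpr1b, Acvrl1 and Eng of these were called. Acvrl1, a type I receptor known from vessels, was under 1 FPKM in all 6 DZ libraries and passed the filter only through the zone where it is higher, so its call adds nothing to that count. The others besides Bmpr1b were the co-receptor Eng or endoglin (-0.92, standard error 0.16, adjusted p = 0.00364), the type II receptor Acvr2a (-0.54, adjusted p = 0.0361) and the type I receptor Acvr1 (-0.32, adjusted p = 0.0336). Acvrl1 was at 1.02 to 2.99 FPKM in the SFZ and 0.13 to 0.31 FPKM in the DZ, and Eng at 20.27 to 31.49 and 7.45 to 18.5 FPKM. Neither overlapped between zones.

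Antagonists and modulators had 5 of 14 tested called lower and 2 higher, against 18.9% and 4.3% of all genes. After quantile normalization 3 were called lower (Fst, Fstl1 and Nbl1) and with size factors 2 (Fstl1 and Nbl1), with 2 higher under both. Nbl1, a relative of Gremlin 1, fell from 15.28 to 59.5 FPKM in the SFZ to 1.32 to 11.8 FPKM in the DZ (-2.02, standard error 0.38, adjusted p = 0.00511). Fstl1, a secreted follistatin-like protein and the most abundant gene of this role, fell from 171.34 to 390.44 FPKM to 31.45 to 154.21 FPKM (-1.62, standard error 0.33, adjusted p = 0.00652). Both genes, like Twsg1, were separate between zones. Fst, or follistatin (-0.79, adjusted p = 0.0305), Chrdl1 (-0.73, adjusted p = 0.0448) and Chrd, or chordin (-0.65, adjusted p = 0.0353), were lower with overlapping zones. Fstl3, a follistatin relative, was higher in the DZ (0.66, standard error 0.18, adjusted p = 0.0225), as was Twsg1, which binds BMPs and chordin (0.22, standard error 0.07, adjusted p = 0.0332). Thus the antagonists did not move as 1 group, and Nog and Grem1 were not among those called.

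Of the signal transducers, the ubiquitin ligases Smurf1 (-0.61, standard error 0.12, adjusted p = 0.00583) and Smurf2 (-0.41, adjusted p = 0.0311), which mark Smads for degradation, were called lower, 2 of 6 tested against 18.9% of all genes. Smurf1 was also the only gene of the list called in R3-Cntl alone (-0.83, standard error 0.13, adjusted p = 0.048), a call lost under 5 of the 7 alternatives that keep every library and without any 1 library but R3-Cntl SFZ library 1. Smad4, at 19.36 to 28.26 FPKM, was the most abundant of that role. The remaining roles had no gene called, with 8 target and feedback genes and 4 processing proteases tested. Pcsk6, at 19.44 to 51.45 FPKM, was the most abundant of the proteases, and Id3, at 87.17 to 208.41 FPKM, of the targets. Over the 18 alternatives, 6 of the 15 calls held in each (Bmpr1b, Eng, Nbl1, Fstl1, Smurf1 and, with the limit given above, Acvrl1), Bmp4 and Fstl3 lost theirs only without R3-Cntl SFZ library 2 (0.0546 and 0.0513), and Twsg1, Chrdl1, Chrd, Fst, Acvr1, Acvr2a and Smurf2 lost theirs in 7 to 13.

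**Figure D2:**
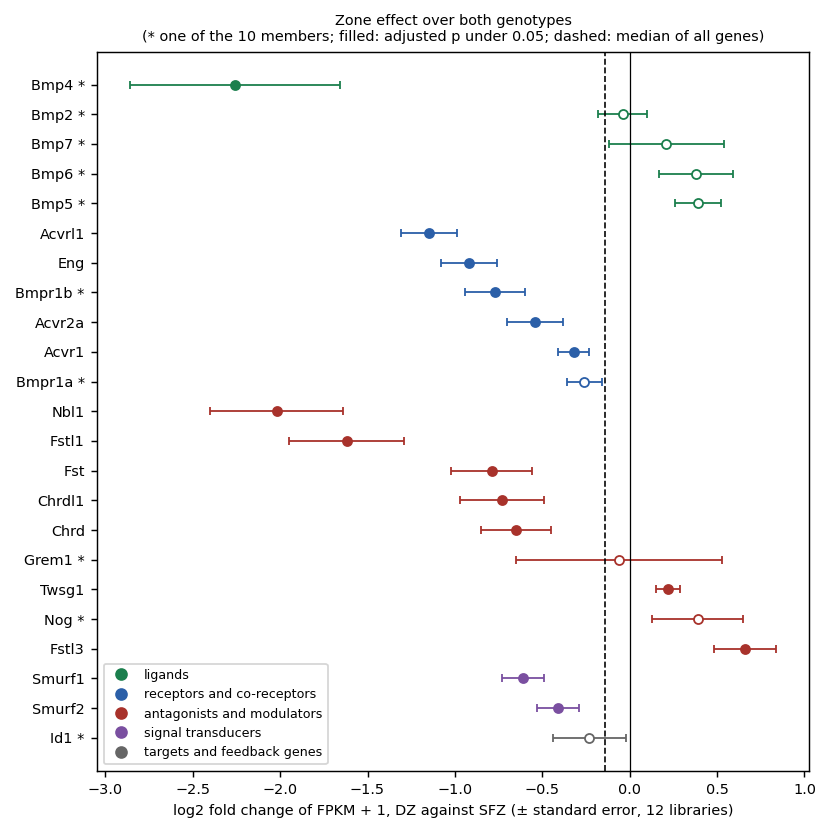
Log2 fold change of FPKM + 1 in the DZ against the SFZ (x axis, ± standard error, 12 libraries) for the 10 genes, marked with asterisks, and for every other pathway gene called, coloured by role. Filled points have an adjusted p under 0.05 and the dashed line is the median of all genes, -0.14. Bmp4 is at -2.26 and Nbl1 at -2.02, and Fstl3 and Twsg1 are the filled points above 0; Grem1 and Bmp2, both open, lie above 0 under the other scalings.

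Genes typical of other tissue were also higher in the SFZ. The fibroblast and perichondrium list (Postn, Sfrp2, Thy1, Pdgfra and Dpt, 5 of 5 in the table) had SFZ sums of 193, 624 and 158 FPKM for R3-Cntl libraries 1, 2 and 3 and of 183, 133 and 1052 for R3-cKO. In the DZ it summed to 2.51, 9.17 and 33 FPKM in R3-Cntl and to 5.71, 11.9 and 17.7 FPKM in R3-cKO. Sfrp2 was the most abundant in the SFZ (mean 191 FPKM) and Pdgfra in the DZ (7.17 FPKM, against 1.3 for Sfrp2), and no gene was at 0 throughout. Ordered by rising sum, the DZ libraries had Bmp4 at 0.42, 5.37, 8.5, 14.9, 18.63 and 13.25 FPKM. Ordered the same way, the SFZ libraries had it at 58.59, 55.45, 22.49, 21.72, 79.4 and 31.31 FPKM. Within the DZ the library with the lowest sum, R3-Cntl library 1, also had the lowest Bmp4, Nbl1 and Fstl1. Within the SFZ the library with the highest sum, R3-cKO library 3, had Bmp4 at 31.31 FPKM, below 3 of the other 5, and the highest Nbl1. R3-Cntl SFZ library 2 had the second highest sum, 624 FPKM, and the highest Bmp4, 79.4 FPKM.

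The tendon list (Scx, Tnmd, Mkx, Egr1 and Fmod, 5 of 5) was led by Fmod and summed to 1127, 982 and 852 FPKM in R3-Cntl SFZ, 1267, 713 and 1451 FPKM in R3-cKO SFZ, 600, 504 and 972 in R3-Cntl DZ and 807, 454 and 813 in R3-cKO DZ. The osteoblast list (Bglap, Sp7, Dmp1, Col1a1 and Ifitm5, 5 of 5) was led by Col1a1 and summed to 1897, 3732 and 2131, to 1961, 1864 and 4802, to 38.4, 260 and 977 and to 64.4, 252 and 584 FPKM in the same order of groups. Dmp1 stayed under 1 FPKM in every library. All 5 genes of the tendon list and 4 of 5 of the osteoblast list had the higher mean in the SFZ. The part of these lists in the zone result of Bmp4 and the other genes was not tested.

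Macrophage markers (Cd68, Csf1r, Adgre1, Lyz2 and C1qa, 5 of 6 listed symbols in the table) were led by Lyz2. Their sums were 159, 130 and 6.37 FPKM in R3-Cntl SFZ, 126, 13.3 and 58.8 FPKM in R3-cKO SFZ, 7.16, 6.03 and 20.8 FPKM in R3-Cntl DZ and 5.78, 3.56 and 3.3 FPKM in R3-cKO DZ. The 2 SFZ libraries with the lowest sums, R3-Cntl library 3 and R3-cKO library 2, had Bmp4 at 55.45 and 58.59 FPKM, and R3-Cntl library 2, with the second highest sum, had the highest Bmp4, 79.4 FPKM. Endothelial markers (Pecam1, Cdh5, Kdr and Tie1, 4 of 4) were led by Pecam1 and summed to 4.01, 2.15 and 0.33, to 2.18, 0.46 and 0.41, to 0.33, 0.18 and 0.11 and to 0.19, 0.1 and 0.02 FPKM in the same order, with Kdr and Tie1 under 1 FPKM throughout. In R3-cKO SFZ library 2, where the endothelial sum was 0.46 FPKM, Eng had its highest value, 31.49 FPKM, and Acvrl1 its lowest of the SFZ, 1.02 FPKM. Acvrl1 was at 1.57, 2.99 and 1.1 FPKM in R3-Cntl SFZ libraries 1 to 3 and at 1.56, 1.02 and 2.17 in those of R3-cKO, in the order of the sums above. The part of these markers in either gene was not tested. The hypertrophic and deep zone list (6 of 6, led by Spp1) summed to 363 to 869 FPKM in the SFZ and 643 to 1559 FPKM in the DZ. Skeletal muscle (5 of 5, led by Acta1 over the 12 libraries) summed to 4.25 to 73.3 and 4.93 to 19.5 FPKM, the high value being R3-Cntl SFZ library 2, and its Ckm stayed under 1 FPKM. Keratinocyte (4 of 4, led by Trp63) and osteoclast lists (4 of 4, led by Ctsk) overlapped between zones, with Krt5, Krt14, Ocstamp and Calcr under 1 FPKM, as were all 3 erythroid genes in the table.

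**Figure D3:**
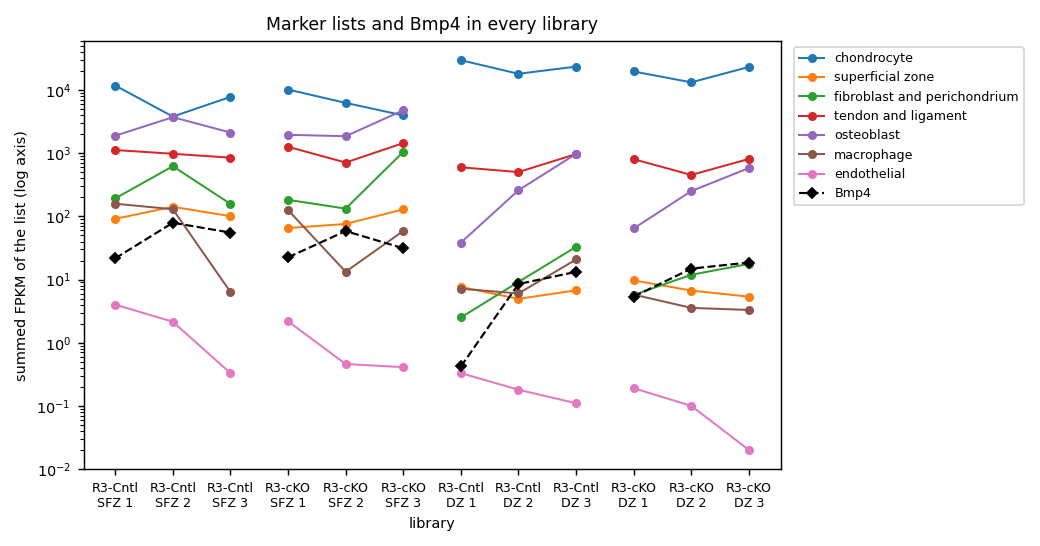
Summed FPKM of 7 marker lists and the level of Bmp4 (dashed) in each of the 12 libraries, on a log axis; lines join the libraries of a group. The fibroblast and perichondrium sum is 133 to 1052 FPKM in the SFZ and 2.51 to 33 FPKM in the DZ, beside Bmp4 at 21.72 to 79.4 and 0.42 to 18.63 FPKM.

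Genotypes were then compared within each zone, to ask whether the libraries labelled R3-cKO differ from R3-Cntl in BMP genes. By limma 0 of 11537 genes (0%) were called in the SFZ and 0 of 11091 (0%) in the DZ, with 34 and 404 genes below an unadjusted p of 0.05, so none of the 10 genes was called. With the replicate block, given that DZ libraries paired by number, the DZ genes below an unadjusted p of 0.05 numbered 1830 and the count called was still 0. Groups of 3 did not overlap for 0 of the 10 genes in the SFZ, against 2.4% of all genes. In the DZ they did not overlap for 3 of the 10, Bmp5, Bmp6 and Bmp7, against 8.03% of all genes. Some cell type markers were separate between genotypes in the DZ as well. With R3-cKO, Sp7, Bglap, Hapln1 and Lyz2 were lower there and Cd34 and Krt10 higher. Sp7, for example, was at 12.36 to 14.82 FPKM in R3-Cntl DZ and 6.15 to 10.52 FPKM in R3-cKO DZ. The part of these markers in the ligand values was not tested.

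Bmp6 (Entrez gene 12161, chr13:38436995-38592183, forward strand of mm9) had DZ values of 6.84, 4.57 and 4.04 FPKM in libraries 1, 2 and 3 of R3-Cntl, against 2.78, 2.27 and 2.3 under the R3-cKO label. Its SFZ values were 4.19, 2.33 and 1.9 FPKM for R3-Cntl and 2.98, 3.08 and 1.27 for R3-cKO. The R3-Cntl DZ libraries were the highest group and lay above every R3-cKO library of either zone, while the SFZ groups overlapped. The log2 fold change was -0.81 in the DZ (standard error 0.19, unadjusted p = 0.0045 in limma, adjusted p = 0.999, exact permutation p = 0.1, the smallest possible) and -0.15 in the SFZ (standard error 0.32). The difference of the 2 was -0.66 (standard error 0.39, adjusted p = 0.999). Seen by zone, Bmp6 was 0.71 higher in the DZ of R3-Cntl on the log2 scale (standard error 0.27, adjusted p = 0.152) and differed by 0.05 in R3-cKO (standard error 0.25, adjusted p = 0.959).

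Bmp7, a ligand close in sequence to Bmp5 and Bmp6, had DZ values of 3.76, 3.69 and 2.94 FPKM for R3-Cntl and 1.42, 2.69 and 1.74 for R3-cKO. In the SFZ it ranged from 0.78 to 5.24 FPKM in R3-Cntl and from 0.54 to 4.24 FPKM in R3-cKO, so the separation was seen in the DZ. The log2 fold change was -0.62 in the DZ (standard error 0.19, adjusted p = 0.999) and -0.23 in the SFZ (standard error 0.60). Bmp5 went the other way in the DZ, with values of 11.32, 17.22 and 16.25 FPKM for R3-Cntl and 17.23, 17.77 and 18.51 for R3-cKO. The lowest R3-cKO value and the highest R3-Cntl value differed by 0.01 FPKM, and the log2 fold change was 0.26 (standard error 0.17, adjusted p = 0.999) against 0.14 in the SFZ. Bmp4 overlapped between genotypes in both zones, at -0.40 in the SFZ (standard error 0.55) and 1.12 in the DZ (standard error 0.89). The DZ contrast of Bmp4 was 0.11 without R3-Cntl library 1, a fit that kept R3-cKO library 1, its same-number partner, at 5.37 FPKM. Within same-number DZ pairs Bmp4 was higher in R3-cKO in 3 of 3, as were 26.6% of all genes tested. Over the 10 genes the contrasts ran from -0.40 to 0.40 in the SFZ and from -0.81 to 1.12 in the DZ.

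Across the pathway list, 0 of 50 tested genes were separate between genotypes in the SFZ, against 2.4% of all genes, and 8 of 47 in the DZ, against 8.03%. Beside the 3 ligands these were Acvr1 (0.30, standard error 0.14), Fstl3 (0.49, standard error 0.21), Id3 (0.41, standard error 0.20) and Smurf1 (0.31, standard error 0.14), all higher in the libraries labelled R3-cKO, and Smad1, a transducer (-0.22, standard error 0.11). Each had an adjusted p of 0.999. The median log2 fold change of the tested list genes was -0.04 in the SFZ and 0.03 in the DZ, against -0.01 and 0.05 for all genes.

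**Figure D4:**
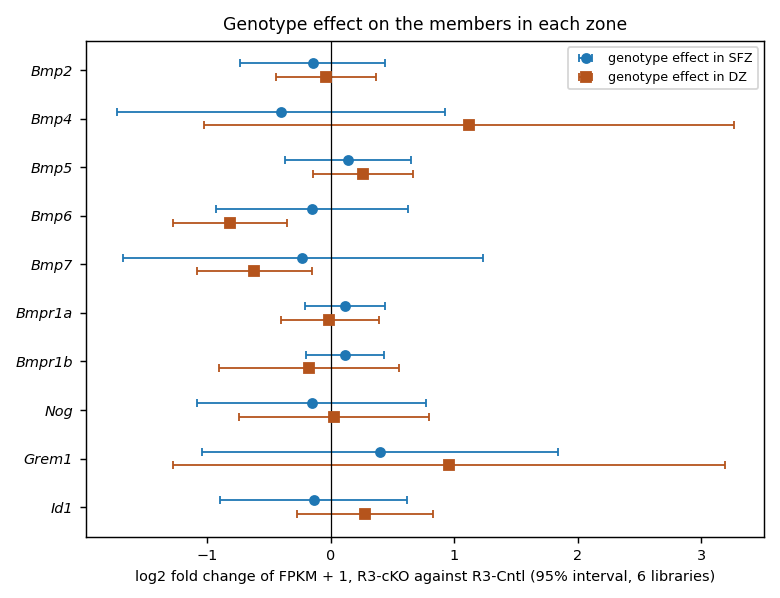
Log2 fold change of FPKM + 1 in libraries labelled R3-cKO against R3-Cntl (x axis, 95% interval, 6 libraries per contrast) for the 10 genes, with circles for the SFZ and squares for the DZ. In the DZ the intervals of Bmp6 (-1.27 to -0.35) and Bmp7 (-1.08 to -0.15) lie below 0, before adjustment over all genes.

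The target genes varied between the libraries of a group. For Id1, R3-Cntl SFZ libraries 1, 2 and 3 held 60.27, 84.6 and 83.87 FPKM, those labelled R3-cKO 50.67, 108.72 and 58.67. Its DZ values were 61.27, 55.37 and 50.3 FPKM for R3-Cntl and 63.91, 94.02 and 51.11 for R3-cKO. The 2 highest values were those of R3-cKO library 2 in both zones. The same library was the highest of its group for 8 of 8 target and feedback genes in the SFZ (Id1, Id2, Id3, Id4, Smad6, Smad7, Atoh8 and Bambi) and for 6 of 8 in the DZ. R3-cKO DZ library 3 was the lowest of its group for 7 of 8, and so was R3-Cntl DZ library 3. The shares of all genes that were highest or lowest in these libraries were not counted. R3-cKO SFZ library 2 also weighed on other genes. Without it, 1204 genes were below an unadjusted p of 0.05 in limma between genotypes in the SFZ, against 34 with it. Smad6, an inhibitory Smad induced by BMP signals, was at 12.96, 30.96 and 12.91 FPKM in R3-cKO SFZ libraries 1, 2 and 3 and at 17.02, 26.74 and 8.31 FPKM in R3-cKO DZ. In R3-Cntl no library was the highest for more than 4 of 8, and library 1 was the lowest for 6 of 8 in the SFZ and the highest for 4 of 8 in the DZ. None of the 8 separated by zone over both genotypes or, except for Id3 in the DZ, by genotype. By library number in the DZ, a pairing taken from the values and not from a label, Id1, Id3, Smad6, Smad7 and Atoh8 were higher in R3-cKO in 3 of 3 pairs. These are 5 of the 8, against 26.6% of all genes tested, and Bambi was lower in 3 of 3, against 13.4%. The 8 were mostly lowest in the same DZ library of each genotype, so they are not independent counts. None of them was called by limma between genotypes. Of the 9 members other than Id1, Bmp4, Bmp5 and Grem1 were higher and Bmp6 and Bmp7 lower in 3 of 3 pairs.

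The target genes were also set beside Bmp4. The 3 SFZ libraries with the highest Bmp4, R3-Cntl libraries 2 and 3 and R3-cKO library 2, were also the 3 highest for 6 of the 8 target genes and for 22.6% of all 11765 genes tested, Id4 and Bambi being the exceptions, though for Id2 the lowest of these 3 and the next library differed little (60.86 and 60.51 FPKM). Within these 3 the order was not that of Bmp4, since R3-cKO library 2 had the highest value of the 6 genes and R3-Cntl library 2 the highest Bmp4. Id3, for example, was at 172.74, 181.46 and 208.41 FPKM in them and at 95.15 to 147.63 FPKM in the other 3. In the DZ the 3 libraries with the highest Bmp4 were the 3 highest for 0 of the 8. The share of all genes with that DZ order was not counted, so the 2 zones are not compared. R3-cKO DZ library 3 had the highest Bmp4 of the zone, 18.63 FPKM, and the lowest Id2 and Id4, 22.42 and 10 FPKM. It also had the highest Grem1 of all libraries, 37.58 FPKM. This ordering was noticed in the values and is a description of 6 libraries a zone.

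**Figure D5:**
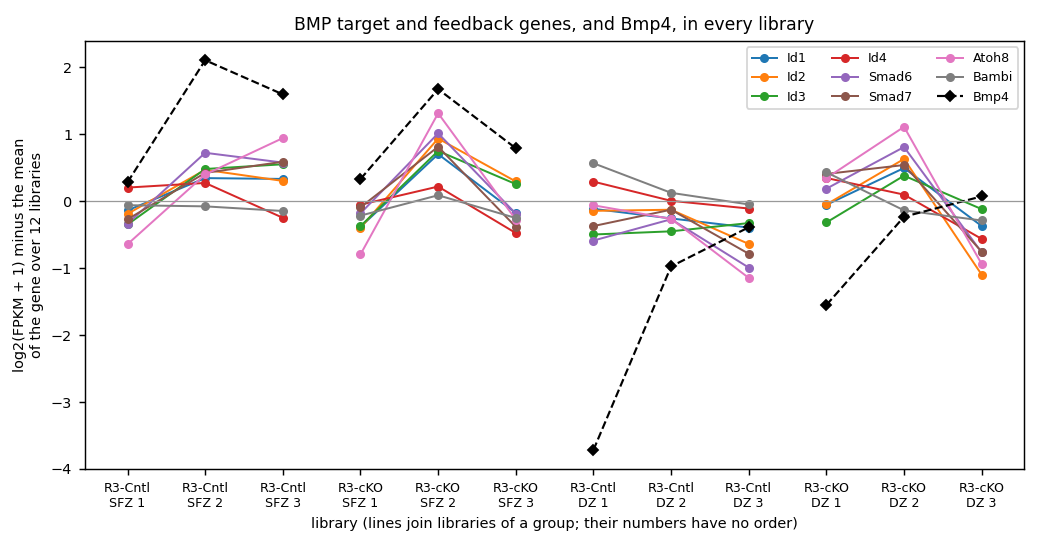
Log2(FPKM + 1) of 8 BMP target and feedback genes and of Bmp4 (dashed) in each library, each minus the mean of that gene over 12 libraries; lines join libraries of a group, whose numbers have no order. R3-cKO library 2 is the highest of its group for 8 of 8 target genes in the SFZ and 6 of 8 in the DZ, while Bmp4 drops between zones. The shares of all genes highest in that library were not counted.

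Each gene was also set beside the 11764 other genes that passed the filter over the 12 libraries, by the root mean square difference of log2(FPKM + 1) after centring each on its mean. Fbn2 and Ecm1 were nearest to Bmp4, at 0.43 and 0.44, and both matrix genes had their lowest value, 0.95 and 2.25 FPKM, in R3-Cntl DZ library 1 as Bmp4 did. Homer2 (0.16) and Cntln (0.19) were nearest to Bmpr1b. Thbs3 and Lpcat1 were nearest to Bmp6 (both 0.21), and Cxadr and Sec14l2 to Bmp7 (both 0.3). Cdkn2a was nearest to Grem1, at 0.57, and had its highest values, 15.33 and 12.33 FPKM, in R3-cKO libraries 3 of the SFZ and the DZ, and Cdh3 followed at 0.64. Vdr and Cpox (both 0.22) were nearest to Nog, Ilk and Tmem43 (both 0.12) to Id1, Dcaf12l2 (0.14) and Ppp3ca (0.16) to Bmp5, Mga and Osbpl8 (both 0.14) to Bmp2, and Shprh (0.06) to Bmpr1a. Small differences belong mostly to genes that vary little, such as Bmpr1a.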

How the data were processed

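RNA-seq of SFZ and DZ cells was analysed from 3 R3-Cntl and 3 R3-cKO libraries of either zone. Reads of 100 bp, in pairs, had been mapped to mm9 by the authors, and the submitters' processing notes name Bowtie 0.12.2. The deposited values are FPKM scaled between libraries by TMM, a unit inferred from the values, and not on a log scale. Depth, and so counting error, is unknown.

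Values were analysed as log2(FPKM + 1) in R 4.3.3 with limma 3.58.1 (empirical Bayes with a mean-variance trend, Benjamini-Hochberg adjustment over the genes that reached 1 FPKM in 3 or more fitted libraries), tested on simulated data. Zone effects used the 12 libraries with genotype as a term, or 6 of 1 genotype, and are positive when higher in the DZ. Genotype effects used the 6 libraries of a zone, and their difference was an interaction over 12. For single genes an exact two-sided permutation p is given, which cannot go below 0.1 for 3 libraries against 3. Levels, lists and promoters used Python 3.11.15, pandas 2.3.3 and NumPy 2.4.6.

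Besides the 10 genes, pathway genes are named when called in any comparison, when genotype groups do not overlap, or as the most abundant of their role. Up to 2 most alike genes of each, markers of 12 cell types (56 of 58 listed symbols in the table) and Runx3 are named too. Results for some genes are not given. Members and lists were chosen with earlier results of these data known.

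The alternatives were pseudocounts of 0.1 and 5, no filter, quantile normalization, median-of-ratios size factors, a replicate block, all 12 libraries in 1 model, and each library left out. Whether the number in a library's name pairs samples was checked by correlating same-number libraries after removing group means, over 11359 genes. The correlations were 0.42, 0.78 and 0.65 between zones of R3-cKO and 0.65, 0.78 and 0.69 between genotypes in the DZ, so the replicate block is used beside these, on the strength of the values, since no label says what the numbers share.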

Additional observations from a re-analysis of the deposited data

How the results depend on the processing

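Calls at an adjusted p under 0.05 between zones numbered 2725 over both genotypes and 1624 (without R3-Cntl SFZ library 2) to 2899 with 1 library left out. In R3-Cntl they numbered 140, and 88 with a pseudocount of 0.1, 29 with a pseudocount of 5, 0 with no filter, 1 with quantile normalization, 17 with median-of-ratios size factors, 798 with all 12 libraries in 1 model, and 0 to 505 with 1 library left out. In R3-cKO they numbered 2, and 1 with either pseudocount, 7 with no filter, 352 with the replicate block, 165 with all 12 libraries in 1 model, and 0 to 5 with 1 library left out. The causes were not tested. Genotype effects and their difference gave 0 calls under every alternative.

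Same-number correlations for libraries 1, 2 and 3 were 0.58, 0.11 and -0.15 between zones in R3-Cntl and 0.79, -0.09 and -0.42 between genotypes in the SFZ. Not every pair was above 0.1, so the number was not taken to pair these samples, although library 1 correlated best with its own number. R3-Cntl SFZ libraries 2 and 3 correlated best with each other's number. The replicate block gave 831 calls between zones in R3-Cntl, where Bmp4 (adjusted p = 0.0311) and Bmp6 (0.0431) were then called, and 3965 over both genotypes, where Bmpr1a was (0.0432). It changed no other call of the 10 genes.

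Between zones over both genotypes, Grem1 (-0.06) reversed to 0.03 with a pseudocount of 5, 0.16 with quantile normalization and 0.08 with size factors, and ranged from -0.45 to 0.17 with 1 library left out. Bmp2 (-0.04) reversed to 0.21 and 0.08 with the 2 scalings and ranged from -0.15 to 0.03, and Bmp7 (0.21) ranged from -0.01 to 0.43. With 1 library left out, the zone effect on Bmp6 in R3-cKO ranged from -0.23 to 0.2, and the genotype effects in the SFZ from -0.32 to 0.13 for Bmp6 and from -0.69 to 0.22 for Bmp7. These causes were not tested either. Of 762 values of single genes under alternatives, 651 kept their direction and side of the threshold, 82 lost and 8 gained a call, and 21 reversed. With depth unknown, changes of genes near 1 FPKM, such as Bmpr1b in the DZ, cannot be set against counting error.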
